A study of Homo sapiens with 15 samples.

Results

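The genes described here are those that carry a cell through the G1 phase and into S phase: the D cyclins CCND1, CCND2, and CCND3, the E cyclins CCNE1 and CCNE2, the kinases CDK2, CDK4, and CDK6, the transcription factor E2F1, and the phosphatase CDC25A. They were picked out by symbol, and all 10 were found among the 19612 gene symbols of the table. RNA sequencing was performed on 15 libraries, 3 for each of 5 conditions. H1975 is a human lung adenocarcinoma line with EGFR mutations, and H1975-OR is an osimertinib-resistant line derived from it by prolonged exposure to the drug. The parental control was H1975 in vehicle, as Samples 1a, 1b, and 1c. The resistant cells were given vehicle (Samples 2a, 2b, and 2c), 100 nM 1,25(OH)2D3, the active form of vitamin D3 (3a, 3b, and 3c), 500 nM osimertinib, an EGFR inhibitor (4a, 4b, and 4c), or the combination (5a, 5b, and 5c). All treatments lasted 96 h in medium with charcoal-stripped serum and were applied at 0, 48, and 92 h. H1975-OR cells were otherwise cultured in 500 nM osimertinib, so the vehicle and 1,25(OH)2D3 groups were also without that drug during the treatment. One resistant line stands for resistance here, and parental cells given 1,25(OH)2D3 or osimertinib were not analysed here.

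D cyclins accumulate when growth factor receptors such as EGFR signal, and they activate CDK4 and CDK6, which phosphorylate the retinoblastoma protein. Phosphorylated retinoblastoma protein releases E2F transcription factors, which turn on the genes of DNA replication together with CCNE1, CCNE2, CDC25A, and E2F1 itself. The E cyclins then activate CDK2, after CDC25A has removed its inhibitory phosphates, and the loop closes at the entry into S phase.

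The sequences just upstream of E2F1 and CDC25A are shown because both genes differed between the lines and both hold letters of an E2F motif. RefSeq promoters (GRCh38.p14, 250 bases before to 50 after each start) were available for 6 of the 10 genes, namely CCND3, CCNE1, CDK4, CDK6, E2F1, and CDC25A. Each line below gives the 100 bases before the gene's start, 5′ to 3′ on the gene's strand, with the motif in capitals. Both genes lie on the minus strand, E2F1 at chr20:33686386-33686485 and CDC25A at chr3:48188418-48188517 for the bases shown.
E2F1: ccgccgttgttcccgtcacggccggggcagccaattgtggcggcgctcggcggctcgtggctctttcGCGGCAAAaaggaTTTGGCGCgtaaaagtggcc
CDC25A: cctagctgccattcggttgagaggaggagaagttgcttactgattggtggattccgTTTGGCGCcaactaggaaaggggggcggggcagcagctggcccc
The 4 forms searched on both strands were TTTCCCGC, TTTCGCGC, TTTGCCGC, and TTTGGCGC. E2F1 holds one match on the opposite strand, 33 to 26 bases before the start, and one on its own strand, 20 to 13 bases before it. CDC25A holds one match, 44 to 37 bases before the start. The other 4 promoters held none of these letters. Of 27305 genes with a promoter, 1090 (3.99%) held at least one of the 4 forms, and of the 21 G1/S target genes of E2F with a promoter, 13 (61.9%) did. A match describes the sequence and not a bound site.

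The libraries held between 4378030 and 6140120 estimated counts, with a median of 4974785. Levels are given as CPM, each gene's count scaled by the library's total after TMM correction for differences in composition. The keratin KRT18 was at 1779 CPM or more in every library, the leukocyte marker PTPRC at 2.12 CPM or less, and the albumin gene ALB at 0.558 CPM or less. The differentiated lung markers SFTPB and NAPSA were at 2.25 CPM or less throughout. Between the lines in vehicle, 3 of 6 tested epithelial and lung markers were lower in H1975-OR (KRT7, EPCAM, and CDH1) and 1 was higher (KRT18). Of 2 tested mesenchymal markers 1 was higher (ZEB1). Over all 12513 genes tested, 20.1% were called in either direction. The part of this marker difference in the results below was not tested. CYP24A1, the vitamin D target that degrades 1,25(OH)2D3, was at 676 CPM or more in every library given 1,25(OH)2D3 and at 25.6 CPM or less in the others. Sample 3a correlated less with 3b and 3c across genes (Pearson r of 0.917 and 0.907) than these did with each other (0.964), and was left out of every test, so the 1,25(OH)2D3 group has n = 2. Its values are given beside the others.

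**Figure D1:**
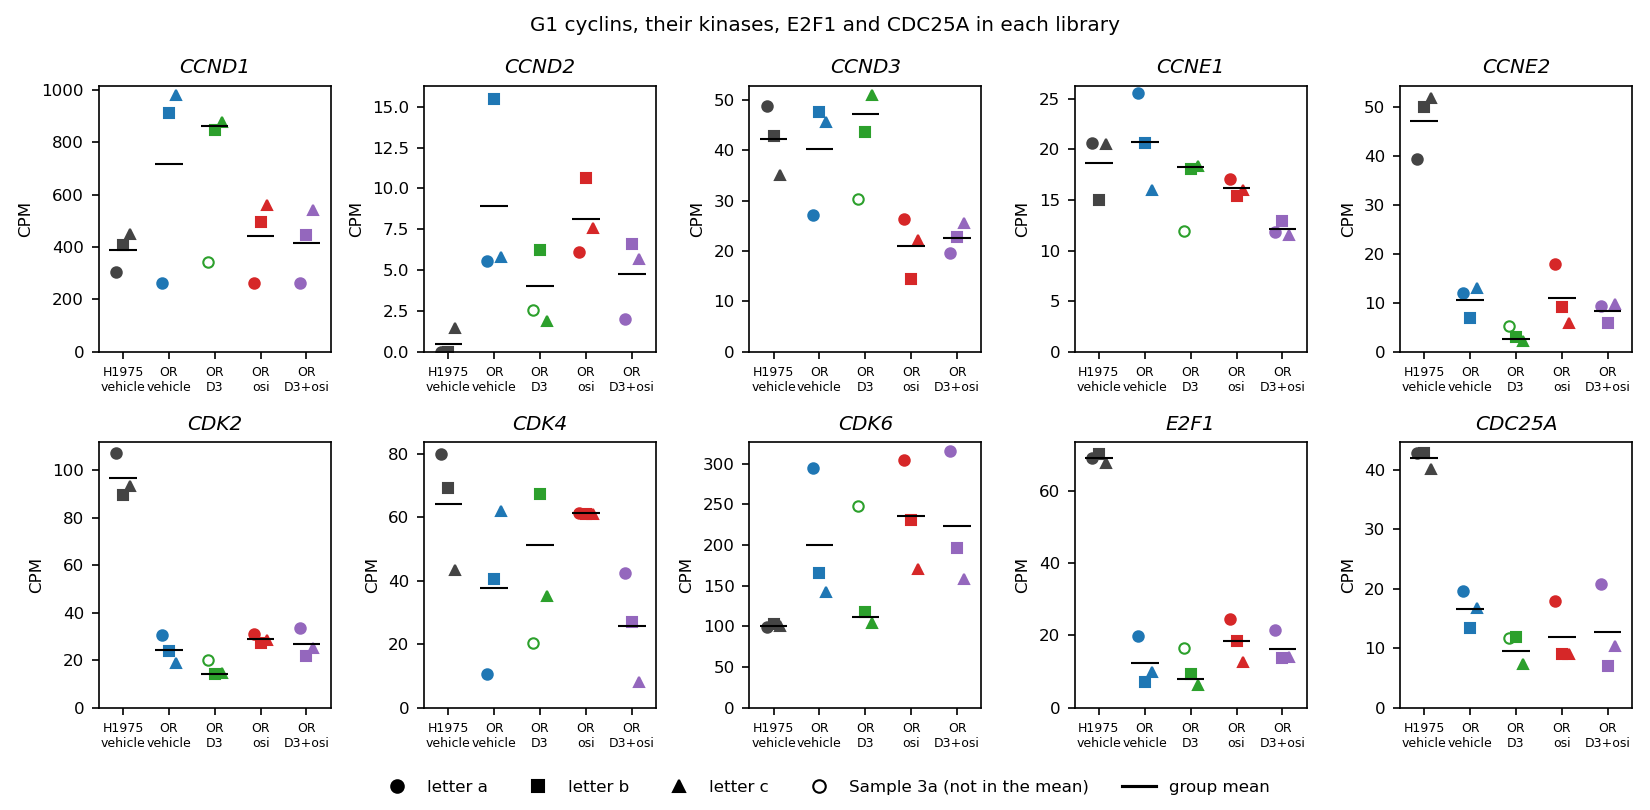
CPM (vertical axis, linear, from 0) of each gene in each library, by condition (horizontal axis; OR, H1975-OR; D3, 1,25(OH)2D3; osi, osimertinib), with the replicate letter as the symbol and the group mean as a line. E2F1, CDC25A, CCNE2, and CDK2 sit lower in all 12 H1975-OR libraries than in the 3 H1975 libraries, and CCND1 is lowest in the library lettered a in each of the 4 H1975-OR groups.

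In vehicle, 6 of the 10 genes differed between H1975-OR and H1975 at an adjusted p under 0.05 by edgeR's quasi-likelihood test, against 20.1% of the 12513 genes tested. CDK6 and CCND2 were higher in the resistant line. E2F1, CCNE2, CDK2, and CDC25A were lower. The D cyclins CCND1 and CCND3, the E cyclin CCNE1, and CDK4 did not pass the test. In these bulk samples, fewer cells in a cycle phase and less RNA per cell cannot be told apart.

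E2F1, the factor that drives S phase genes, was at 69.1, 70.2, and 67.8 CPM in H1975 and at 19.9, 7.24, and 9.83 CPM in vehicle-treated H1975-OR. The 2 groups did not overlap, and the 3 parental libraries lay within a narrow band. The log2 fold change was -2.47 (SE 0.34, adjusted p = 0.00242 by edgeR), or 0.18 of the parental level. E2F1 lies on chromosome 20, from 33675477 to 33686385 of GRCh38.

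CCNE2, the second E cyclin, was at 39.5, 50.1, and 51.9 CPM in H1975 and at 12.1, 6.83, and 12.9 CPM in vehicle-treated H1975-OR. Its log2 fold change was -2.13 (SE 0.27, adjusted p = 0.00173 by edgeR). CDK2, the kinase that E cyclins activate, lies on chromosome 12, from 55966781 to 55972789. It went from 107.1, 89.7, and 93.2 CPM to 30.7, 23.8, and 18.7 CPM, a log2 fold change of -1.97 (SE 0.19, adjusted p = 0.000557 by edgeR). Both genes have exons that overlap a gene of the opposite strand, CCNE2 with INTS8 and NDUFAF6 and CDK2 with PMEL, and whether the counting used strand is not given in the sources used here.

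CDC25A, the phosphatase that activates CDK2, was at 42.8, 42.8, and 40.1 CPM in H1975 and at 19.6, 13.4, and 16.8 CPM in vehicle-treated H1975-OR. The log2 fold change was -1.32 (SE 0.23, adjusted p = 0.00555 by edgeR). The gene lies on chromosome 3, from 48157146 to 48188417. For E2F1, CCNE2, CDK2, and CDC25A, all 12 H1975-OR libraries, whatever the treatment, were below the lowest H1975 library, as was the case for 10.9% of the 12627 genes with a level. The 4 genes therefore stayed below the parental range with 1,25(OH)2D3, with osimertinib, and with both.

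CDK6, which partners the D cyclins, was higher in the resistant line. It was at 99.1, 102.8, and 99.9 CPM in H1975 and at 294.2, 165.7, and 141.7 CPM in vehicle-treated H1975-OR, a log2 fold change of 1.01 (SE 0.25, adjusted p = 0.0225 by edgeR). All 12 H1975-OR libraries were above the highest parental library, which held for 8.09% of genes. The call was lost when Sample 3a was kept in the fit (adjusted p = 0.0955 by edgeR) and when any one of Samples 1a, 1b, or 1c was left out (adjusted p between 0.0624 and 0.0739). Without Sample 2a, the highest of the vehicle-treated H1975-OR libraries, the log2 fold change was 0.61 and the call held (adjusted p = 0.00903 by edgeR). CDK6 lies on chromosome 7, from 92604921 to 92836573.

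CCND2 was close to undetected in H1975, with 0, 0, and 7 counts in Samples 1a, 1b, and 1c. It was at 5.52, 15.5, and 5.78 CPM in vehicle-treated H1975-OR. All 12 H1975-OR libraries lay above the highest parental library, as held for 8.09% of genes. The margin was narrow, with 10 counts in Sample 3c and 10 in Sample 5a. CCND2 passed the count filter only through H1975-OR, so the direction was close to fixed in advance. The log2 fold change was 4.26 (SE 1.17, adjusted p = 0.0349 by edgeR), a size that rests on the 7 counts of Sample 1c. The adjusted p rose to between 0.0556 and 0.111 when Sample 1a, 1b, 2b, or 2c was left out. CCND2 shares exons with a read-through gene of the same strand and with an antisense RNA, CCND2-AS1.

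CCND1, the main D cyclin of these cells, was at 303.3, 407.8, and 448.4 CPM in H1975 and at 263.3, 913.7, and 979.4 CPM in vehicle-treated H1975-OR. Samples 2b and 2c were above every parental library and 2a was below every one. The log2 fold change of 0.91 (SE 0.41) did not pass the test (adjusted p = 0.153 by edgeR). With 1 library left out it ran from 0.62 to 1.29, the highest being without Sample 2a (adjusted p = 0.00162 by edgeR). CCND1 stayed uncalled in 13 of 15 alternatives, and the others were the fit without Sample 2a. CCND1 lies on chromosome 11, from 69641156 to 69654474.

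CCND3 was between 35.0 and 48.9 CPM in H1975 and between 27.2 and 47.6 CPM in vehicle-treated H1975-OR, with a log2 fold change of -0.06 (SE 0.23, adjusted p = 0.883 by edgeR). CCNE1 was between 14.95 and 20.6 CPM and between 16.0 and 25.6 CPM, with a log2 fold change of 0.16 (SE 0.24, adjusted p = 0.667 by edgeR). The groups overlapped for both genes, and the sign of both differences turned without Sample 2a. CDK4, the other kinase of the D cyclins, was at 80.0, 69.3, and 43.4 CPM in H1975 and at 10.6, 40.5, and 62.1 CPM in H1975-OR, with a log2 fold change of -0.75 (SE 0.54, adjusted p = 0.362 by edgeR). CDK4 was widely scattered within most groups. It spanned 8.02 to 42.3 CPM with both agents, while the 3 osimertinib libraries stood at 61.46, 61.02, and 61.15 CPM. Its exons overlap TSPAN31 on the opposite strand.

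**Figure D2:**
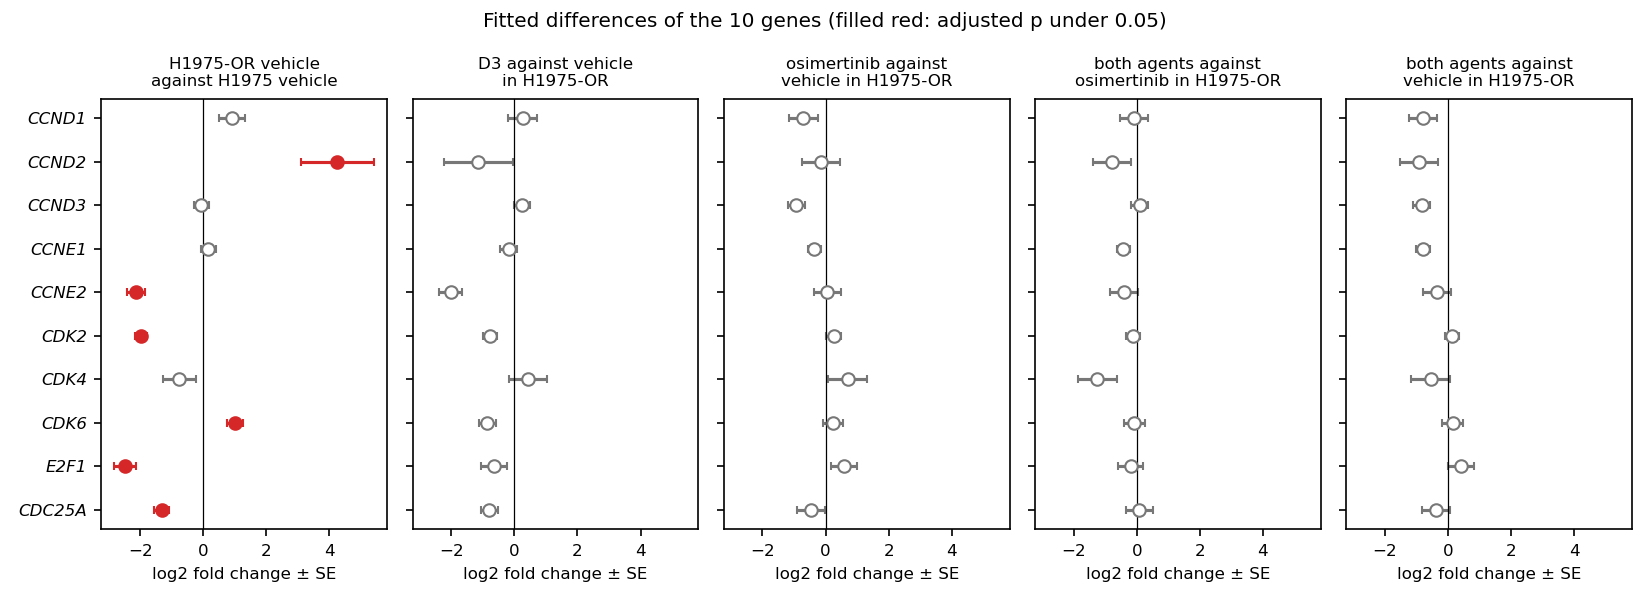
Log2 fold change of each gene (horizontal axis) with its SE as the bar, in 5 comparisons (panels; D3, 1,25(OH)2D3), from edgeR's quasi-likelihood fits. Filled red points, adjusted p under 0.05, appear only in the left panel, where 2 genes are to the right of 0 and 4 to the left.

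Levels of different genes can be set side by side once they are divided by transcript length, here as CPM per kb of the reference transcript. On this scale CCND1 made up 80.9% ± 5.59 (SD, n = 3) of the D cyclins in H1975 and 87.1% ± 5.1 (SD, n = 3) in vehicle-treated H1975-OR. CCND2, although higher in H1975-OR, reached only 1.38 ± 0.877 CPM per kb (SD, n = 3) there, so it remained the least abundant D cyclin. The E cyclins differed in their balance. CCNE2 made up 64.7% ± 6.34 (SD, n = 3) of E cyclin CPM per kb in H1975 and 27.4% ± 8.96 (SD, n = 3) in vehicle-treated H1975-OR, where CCNE1 was the more abundant of the pair. That share was 9.5% ± 1.92 (SD, n = 2) with 1,25(OH)2D3, 31.7% (21.4% to 43.3%, n = 3) with osimertinib, and 33.2% ± 7.2 (SD, n = 3) with both.

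CDK6 made up 20.9% ± 5.41 (SD, n = 3) of CDK4 and CDK6 together in H1975. In vehicle-treated H1975-OR the share was 49.3% ± 28.7 (SD, n = 3), a spread set largely by CDK4. The share was 27.0% ± 7.34 (SD, n = 2) with the active form of vitamin D3 alone. With osimertinib alone it was 37.6% ± 6.73 (SD, n = 3), and with both agents 61.4% ± 12.7 (SD, n = 3). Samples 2c, at 26.7%, and 3b, at 21.8%, lay within the H1975 range of 16.5% to 26.9%. The other H1975-OR libraries were above that range. The ratio of summed D cyclins to summed E cyclins, per kb, was 4.11 ± 0.334 (SD, n = 3) in H1975 and 14.1 ± 8.46 (SD, n = 3) in vehicle-treated H1975-OR. These shares and ratios are descriptions with no test.

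**Figure D3:**
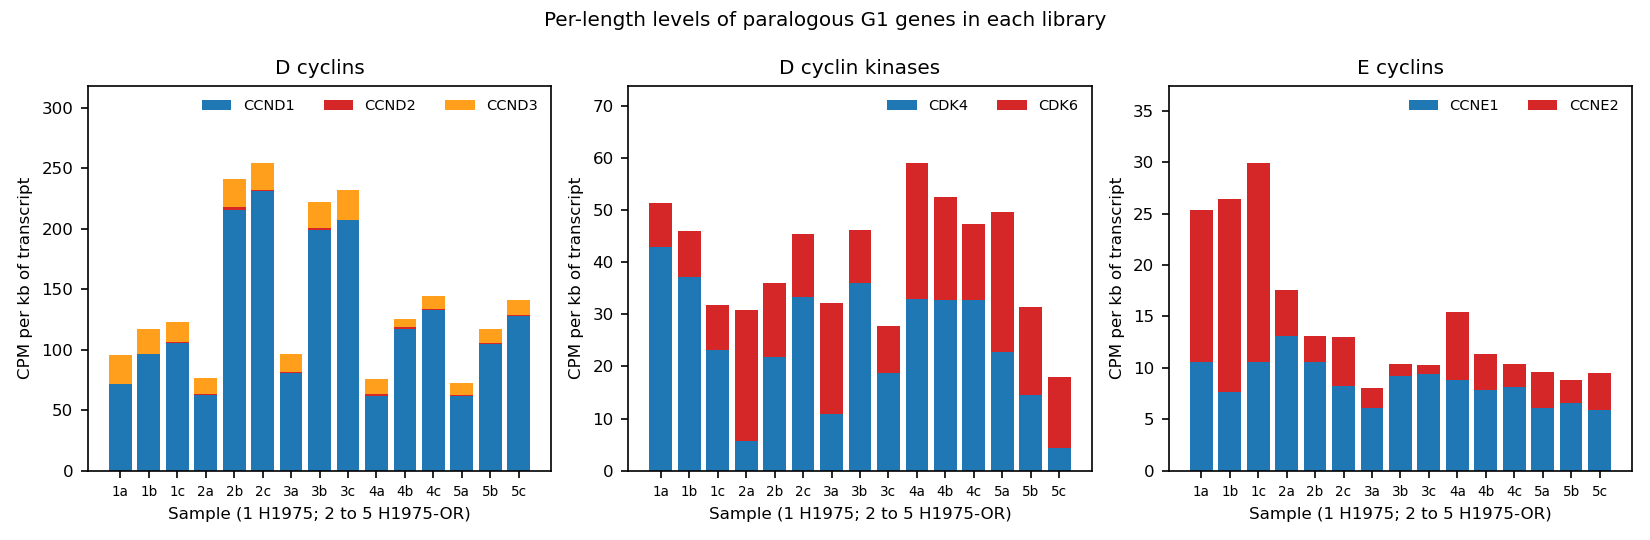
CPM per kb of reference transcript (vertical axis, linear, from 0) of the D cyclins, the D cyclin kinases, and the E cyclins, stacked for each library (horizontal axis). CCND1 fills most of each D cyclin bar, and CCNE2 fills most of the E cyclin bar in the 3 H1975 libraries, at 64.7% on average, and less in H1975-OR vehicle, at 27.4%.

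The targets of E2F factors were compared in the same way. Of 24 G1/S target genes of E2F, 23 were tested, and 17 were lower and 0 higher in H1975-OR in vehicle at an adjusted p under 0.05 by edgeR. Of all 12513 genes, 1284 were lower and 1237 higher at that threshold. The median log2 fold change of the targets was -1.59, beside 0.01 over all genes. CDC45, which loads at replication origins with the MCM helicase, had a log2 fold change of -3.05 (SE 0.36, adjusted p = 0.0012 by edgeR). The ribonucleotide reductase subunit RRM2 was at -2.93, UHRF1 at -2.18, and the helicase subunit MCM5 at -2.15. The 6 tested genes that did not pass were MCM2, MCM3, MCM7, RRM1, TYMS, and TK1, each with an SE of 0.84 or more.

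Of the 9 other E2F and DP factors, E2F8 (-3.17) and E2F2 (-2.01) were lower and E2F3 (0.61) was higher on the log2 scale, and the other 6 did not pass. Of the 10 retinoblastoma family members and CDK inhibitors, the inhibitors CDKN1C (log2 fold change 3.30) and CDKN2C (1.14) were higher and RBL1 (-1.08), a relative of the retinoblastoma gene, was lower. RB1 itself had a log2 fold change of 0.21 (SE 0.23, adjusted p = 0.552 by edgeR). Of 11 partners and turnover factors of the G1 kinases, CKS1B (-1.44), a subunit that binds the CDKs, was lower and none was higher. Of 12 growth factor responsive genes, SPRY2 (1.38) and ETV5 (1.12) were higher and PHLDA1 (-1.50) and FOSL1 (-1.32) were lower. All these counts stand beside 20.1% of the 12513 genes tested, 1237 higher and 1284 lower.

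**Figure D4:**
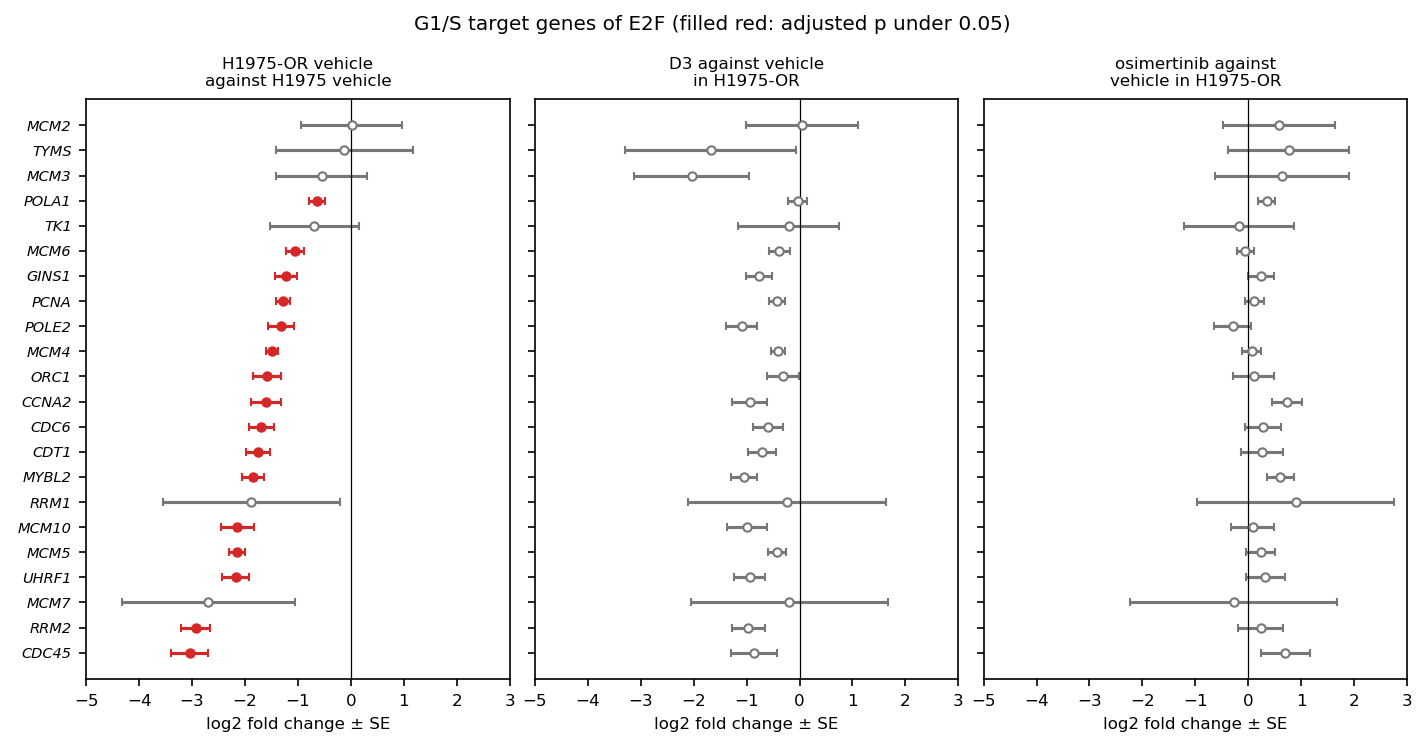
Log2 fold change with SE (horizontal axis) of 22 of the tested G1/S target genes of E2F (rows, in the order of the left panel) in 3 comparisons (D3, 1,25(OH)2D3). In the left panel 16 of the genes shown are filled red (adjusted p under 0.05), all left of 0, and no gene is filled in the other panels.

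With 1,25(OH)2D3 alone, none of the 10 genes differed from vehicle in H1975-OR at an adjusted p under 0.05 by edgeR, against 0.152% of the 12513 genes. At an unadjusted p under 0.05, 4 were lower and 0 higher, beside 3.63% of all genes lower and 3.64% higher. CCNE2 had the smallest p of the 4. It was at 12.1, 6.83, and 12.9 CPM with vehicle and at 3.01 and 2.23 CPM in Samples 3b and 3c, and 5.25 CPM in Sample 3a. The groups did not overlap, with or without 3a, and the log2 fold change was -2.02 (SE 0.36, adjusted p = 0.106 by edgeR). As CCNE2 was singled out by its p here, the lack of overlap is no separate support. DESeq2 gave an adjusted p of 0.00125 for the same gene. Within a letter, the 1,25(OH)2D3 library held 0.435, 0.441, and 0.173 of the CCNE2 level of its vehicle library for a, b, and c.

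CDK2 was at 14.2 and 14.5 CPM with 1,25(OH)2D3 (20.04 in Sample 3a), with a log2 fold change of -0.76 (SE 0.23, adjusted p = 0.473 by edgeR). CDK6 was at 117.5 and 104.5 CPM (248.0 in Sample 3a), at -0.85 (SE 0.28, adjusted p = 0.522 by edgeR). CDC25A was at 11.8 and 7.43 CPM (11.8 in Sample 3a), at -0.79 (SE 0.27, adjusted p = 0.532 by edgeR). Samples 3b and 3c lay below all 3 vehicle libraries for each of these genes, and Sample 3a lay within the vehicle range for CDK2 and CDK6. All 3 genes had an unadjusted p under 0.05 in this same comparison, so the separation is no separate support. Sample 2a was the highest vehicle library for all 3 genes, and its letter partner 3a is not in these fits. Keeping 3a gave a log2 fold change of -0.35 for CDK6, -0.58 for CDK2, and -0.68 for CDC25A. Without 2a it was -0.47 for CDK6, and without 3c it was -0.49 for CDC25A. Within letters a, b, and c, the 1,25(OH)2D3 library held 0.843, 0.709, and 0.737 of the CDK6 level of its vehicle library. The ratios were 0.653, 0.596, and 0.775 for CDK2 and 0.599, 0.879, and 0.443 for CDC25A. CCND1 was at 845.1 and 877.4 CPM, within the range of vehicle. Of the 23 G1/S target genes of E2F, 22 had a log2 fold change below 0 and 12 an unadjusted p under 0.05, all 12 lower, while 0 passed the adjusted threshold. Their median was -0.60, beside -0.01 over all genes, of which 3.63% were lower at an unadjusted p under 0.05. This comparison too holds Sample 2a without its letter partner 3a. For CDC45, RRM2, and MCM5, levels were 11.05, 55.2, and 40.7 CPM in 2a and 12.4, 56.6, and 33.2 CPM in 3a. Of the tested targets, CDC45, RRM2, UHRF1, CDT1, MCM7, and TYMS were higher in 3a than in 2a, and all the others were lower. How much of the fall of these targets comes with the letter was not tested.

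With osimertinib alone, none of the 10 genes differed from vehicle at an adjusted p under 0.05 by edgeR, against 0.048% of the 12503 genes tested. One of the 10 genes, CCND3, had an unadjusted p under 0.05, as did 7.53% of all genes. It was at 27.2, 47.6, and 45.7 CPM with vehicle and at 26.3, 14.3, and 22.1 CPM with osimertinib, without overlap, and the log2 fold change was -0.94 (SE 0.27, adjusted p = 0.388 by edgeR). The lowest vehicle library, 2a, and the highest osimertinib library, 4a, were almost level. As CCND3 was singled out by its p here, the lack of overlap is no separate support.

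CCND1 showed the same split by letter. Samples 4b and 4c held 0.543 and 0.574 of the CCND1 level of 2b and 2c, whereas 4a, at 263.1 CPM, held 0.999 of the level of 2a. Over all libraries the log2 fold change was -0.70 (SE 0.45, adjusted p = 0.824 by edgeR). With the libraries lettered a left out, an analysis chosen after the data had been seen, it was -0.84 (adjusted p = 0.0453). In each of the 4 H1975-OR groups the letter a library had the lowest CCND1 and the highest CDK6, E2F1, and CDK2. NKX2-1, a lung epithelial factor, was also lowest in the letter a library of each group, between 31.9 and 35.5 CPM beside 55.4 to 99.0 CPM in the b and c libraries of H1975-OR. Among the H1975 libraries, Sample 1a was also lowest for CCND1 and NKX2-1 and highest for CDK2, but it was not highest for CDK6 or E2F1. What set the letter a libraries of H1975-OR apart was not tested.

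E2F1 was at 24.6, 18.4, and 12.7 CPM with osimertinib, overlapping the vehicle libraries. Of all 12503 genes, 6378 were above 0 and 6123 below with osimertinib, with a median of 0.01. At an unadjusted p under 0.05, 3.62% of them were higher and 3.9% lower. The median log2 fold change of the G1/S target genes of E2F was 0.26, with 19 of 23 above 0 and 3 at an unadjusted p under 0.05, all higher, and 0 passed the adjusted threshold. The growth factor responsive genes were all below 0. Their median was -0.60 over 12 genes, 5 had an unadjusted p under 0.05, and 0 passed the adjusted threshold. EGR1, an immediate early transcription factor, had a log2 fold change of -3.61 (SE 0.96, adjusted p = 0.348 by edgeR). It was at 1.23, 7.86, and 6.36 CPM with vehicle and at 0.76, 0.20, and 0.20 CPM with osimertinib. There 3 counts are about 0.6 CPM, so the size of this change rests on few counts. DUSP6, a phosphatase that inactivates ERK, had a log2 fold change of -1.48 (SE 0.61, adjusted p = 0.607 by edgeR). It was at 3.89, 18.6, and 27.6 CPM with vehicle and at 4.57, 4.1, and 9.2 CPM with osimertinib, lower in letters b and c only.

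With both agents, none of the 10 genes differed from osimertinib alone (0.096% of 12503 genes did) or from vehicle (0.496% did) at an adjusted p under 0.05 by edgeR. Against vehicle, CCND3 and CCNE1 had an unadjusted p under 0.05, which is 2 of 10 genes beside 12.5% of all genes. They are described for that reason, so a lack of overlap is no separate support. CCND3 was at 19.7, 22.8, and 25.5 CPM, below all 3 vehicle libraries, with a log2 fold change of -0.83 (adjusted p = 0.24 by edgeR). CCNE1 was at 11.8, 12.9, and 11.6 CPM, beside 25.6, 20.7, and 16.0 CPM with vehicle, with a log2 fold change of -0.78 (adjusted p = 0.178 by edgeR). These were the lowest CCNE1 levels of any group, although Sample 3a was at 11.9 CPM.

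CCND1 was at 263.1, 444.0, and 541.9 CPM with both agents, and the log2 fold change against vehicle was -0.79 (adjusted p = 0.531 by edgeR). It was -0.95 (adjusted p = 0.0189) with the letter a libraries left out, and within letters the ratios to vehicle were 0.999, 0.486, and 0.553 for a, b, and c. The growth factor responsive genes were again all 12 below 0 against vehicle, with a median of -0.78 and 6 at an unadjusted p under 0.05, and 0 passed the adjusted threshold. Beside them, 6234 of all 12503 genes were below 0, and 6.09% were lower at an unadjusted p under 0.05. The comparisons of osimertinib and of both agents with vehicle share their vehicle libraries.

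CCNE2 was at 17.9, 9.21, and 5.93 CPM with osimertinib and at 9.43, 5.88, and 9.67 CPM with both agents, and these groups overlapped. The effect of 1,25(OH)2D3 in the presence of osimertinib minus its effect in the absence of it was 1.60 on the log2 scale for CCNE2 (SE 0.69, adjusted p = 1 by edgeR). This interaction passed for 0 of the 10 genes and for 0% of all 12503 genes by edgeR, while 153 genes above 0, CCNE2 among them, and 177 below 0 had an unadjusted p under 0.05. DESeq2 called 11 genes in all for the interaction and 0 of the 10.

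Ordered by mean level, H1975 stood highest for E2F1, CDC25A, CCNE2, CDK2, and CDK4 and lowest for CCND1, CCND2, and CDK6. The step between H1975 and its neighbour was free of overlap between libraries for all of these except CDK4 and CCND1. For CCND2 that gap rests on 7 counts in Sample 1c and 10 in Sample 3c. CDK4 stood at 64.2 CPM in H1975 and 61.2 CPM with osimertinib, and each of its steps was within the larger SD of the groups it joined. For CCND1 each step in the order, from 386.5 CPM in H1975 through 416.3 with both agents, 440.4 with osimertinib, and 718.8 with vehicle to 861.3 with 1,25(OH)2D3, was within the larger SD of the groups it joined. CCND3 had 1 step larger than that, between 22.6 CPM with both agents and 40.2 CPM with vehicle in H1975-OR.

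The genes whose log2 levels followed E2F1 most closely over the 14 libraries other than 3a, among 7610 genes searched, were HIST1H4C (Pearson r = 0.986), NCAPH (0.981), HIST1H3F (0.98), CDK1 (0.979), and RRM2 (0.978). For CCNE2 they were GINS2 (0.979), DTL (0.961), NCAPH (0.961), HIST1H1B (0.959), and UHRF1 (0.956). NCAPH was on both lists. The genes nearest CCND1 were NIPAL1 (0.961), PYGL (0.949), and HNMT (0.928), those nearest CDK6 were ALPK2 (0.963), RNF144B (0.957), and ZRANB1 (0.955), and the one nearest CCND2 was OLFML2A (0.919). These correlations describe libraries that share a line, a letter, and a scaling, and the gap between H1975 and H1975-OR enters each of them.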

How the data were processed

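The authors prepared stranded total RNA libraries and assigned paired-end reads to transcripts with Kallisto, summing them to genes with tximport. The submitters' processing notes name kallisto 0.43.0, STAR 2.5.2b, CASAVA 1.8.2, and GRCh38, and the annotation is not given in the sources used here. The deposited values are estimated counts for 19612 genes, not scaled for depth or length, and the study took RNA from 3 separate passages.

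Counts were rounded and analysed with edgeR 4.0.16 (quasi-likelihood test, TMM, filterByExpr with a minimum count of 10 and total of 15, Benjamini-Hochberg adjustment over all genes, threshold 0.05) in R 4.3.3. An SE is the log2 fold change divided by the square root of the F statistic. H1975-OR against H1975 and 1,25(OH)2D3 against vehicle shared one fit of 8 libraries (12513 genes), and the other comparisons one fit of 11 H1975-OR libraries (12503 genes), both without Sample 3a, as in the study. Lengths came from GENCODE release 44 reference transcripts, on GRCh38. The test was checked on simulated counts.

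The members and gene lists were chosen with earlier results of these data known. Values are given for all 10 members, for up to 4 genes of a list in each comparison with an adjusted p under 0.05, by the size of the change, and for up to 5 genes nearest a member by Pearson r of log2 CPM. RB1, EGR1, DUSP6, NKX2-1, and the E2F targets named as not passing or as higher in Sample 3a were singled out after their values were seen. One listed gene is counted but not reported here by name. Letters were checked for pairing by the correlation of deviations from group means. Among vehicle, osimertinib, and both agents in H1975-OR the lowest was 0.118 to 0.258. With Sample 3a included, the lowest for 1,25(OH)2D3 was 0.192 with vehicle, -0.0144 with osimertinib, and 0.0261 with both agents. Between H1975 and H1975-OR vehicle the correlation ran from -0.03 to 0.02, so the letters do not pair there. Deviations from a group mean sum to 0, so a letter a that stands apart also raises the values of b and c. The check therefore cannot show that b and c pair. The main tests used no replicate block. Alternatives were RLE size factors, DESeq2 1.42.0, other count filters, Sample 3a kept, a replicate block, one fit of 14 libraries, the compared groups alone, the longest transcript, each library left out, and, added after seeing the data, the letter a libraries left out and 1,25(OH)2D3 against vehicle in the 11 libraries.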

Additional observations from a re-analysis of the deposited data

How the results depend on the processing

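In H1975-OR against H1975, E2F1, CCNE2, CDK2, and CDC25A kept their direction and their call in all 15 alternatives. Leaving out Sample 2a and leaving out the letter a libraries are the same fit there, so 1 fit is counted again. The number of the 10 genes called ranged from 4 to 7 with 1 library left out. Leaving out 1 library gave 0 called genes in each of the other 5 comparisons. DESeq2 called 1 gene for 1,25(OH)2D3 against vehicle (CCNE2, -2.03, adjusted p = 0.00125), beside 0.955% of all genes, and leaving out the letter a libraries of H1975-OR called 1 gene, CCND1, for osimertinib (-0.84) and 1 for both agents (-0.95) against vehicle, beside 0.652% and 2.32% of all genes. The log2 fold change of CCND3 between the lines ran from -0.20 to 0.14 and that of CCNE1 from -0.0321 to 0.32 with 1 library left out. Without Sample 1a, CCND3 was at 0.04, and without Sample 2a, the same fit as without the letter a libraries, CCND3 was at 0.138 and CCNE1 at -0.0321. With the replicate block, which the letters do not justify between the lines, 5 genes were called there, and CCND2 was lost (4.26, adjusted p = 0.066 by edgeR). The block changed no call of the 10 genes within H1975-OR, while the number of all genes called went from 19 to 9 for 1,25(OH)2D3, from 6 to 35 for osimertinib, from 12 to 33 for both agents against osimertinib, and from 62 to 461 for both agents against vehicle. For 1,25(OH)2D3 against vehicle the block gave a log2 fold change of -0.63 for CDK6 in the 8 libraries and -0.51 in the 11, and -0.73 and -0.49 for CDC25A. For H1975-OR against H1975 in vehicle, keeping Sample 3a left CDK6 at 1.01 (adjusted p = 0.0955 by edgeR). With the longest transcript as the length, CCND1 made up 90.9% of the D cyclins with 1,25(OH)2D3, beside 89.5%. CCND2 did not pass a filter of 10 counts in every library, and for the interaction the compared groups are all 4 H1975-OR groups, so that alternative adds no value. The causes were not tested. Differences of CCND2, with 7 counts in H1975, are limited by depth, and with n = 2 or 3 a gene that misses the threshold has not been shown to be equal.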
